A study of Mus musculus with 3 samples.

Results

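The T cell lineage transcription factors read here were 9 genes of the 32285 in the annotation: Foxp3, Ikzf2, Gata3, Tbx21, Bcl6, Eomes, Tox, Tcf7 and Lef1. They were chosen by name, and their unique molecular identifiers (UMIs, 1 per captured RNA molecule) were summed over T barcodes of mouse lung, meaning barcodes with at least 1000 UMIs, 500 genes, at most 10% mitochondrial UMIs and at least 2 UMIs of Cd3d, Cd3e and Cd3g together. Of the barcodes past the first 3 limits, 952 of 2947 in the WT healthy library were T barcodes, 1389 of 4374 in WT tumour and 1662 of 5137 in PPARg-/- tumour. T barcodes were divided into Cd4-only (a Cd4 UMI and none of Cd8a or Cd8b1), Cd8-only (the converse) and those with neither. Cd4-only barcodes numbered 291, 324 and 321 in that order of libraries, Cd8-only 285, 566 and 700, and 357, 484 and 622 had neither. Only 19, 15 and 19 had both and were not read on their own.

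The study asked how EGFR-mutant lung adenocarcinoma, and PPARγ in the macrophages around it, alter the cells of the lung. All mice carried Ccsp-rtTA and TetO-EGFRL858R, a pair of transgenes by which doxycycline turns on a mutant human growth factor receptor in cells that use the club cell promoter Ccsp, and all were fed doxycycline chow (625 ppm) and were 16 to 20 weeks old. The WT healthy mice had these transgenes alone per the labels, the WT tumour mice also had Pparγfl/fl, and the PPARg-/- tumour mice had Pparγfl/fl with Csf1rCre, which drives Cre from the promoter of the CSF1 receptor gene and so reaches monocytes as well as macrophages. Each group was 1 library made from the pooled cells of 3 mice, sorted as CD45+CD11c+SigF+ alveolar macrophages, CD45+CD11b+Ly6G- macrophages, CD45+CD3+ T cells and CD45-EPCAM+ epithelial cells and mixed in equal parts. No group was replicated, so nothing was tested between groups. Levels are UMIs per 1000000 UMIs of the barcodes summed (CPM) with exact Poisson 95% intervals, ratios have exact conditional binomial 95% intervals, and all of these cover counting error only.

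Each of these factors directs a branch of T cell differentiation. FOXP3 defines regulatory T cells and is often accompanied by Helios (Ikzf2) and GATA3. T-bet (Tbx21) and eomesodermin drive type 1 and cytotoxic programmes, GATA3 also drives type 2 helper cells, BCL6 drives follicular helper cells, TOX is needed for CD4 lineage commitment in the thymus and marks chronically stimulated cells, and TCF-1 (Tcf7) and LEF1 are DNA-binding partners of beta-catenin that mark naive and memory T cells.

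The T barcodes differed between libraries in ways other than tumour and genotype. Xist, an RNA of female cells, was read 4100 times in the T barcodes of WT healthy (920 CPM) but only 4 and 3 times in those of the tumour libraries. The Y-linked Ddx3y was at 0, 84.6 and 80.1 CPM, although the labels give about equal use of both sexes. Tumour, sex and the floxed alleles therefore cannot be told apart between WT healthy and WT tumour. Median UMIs per T barcode were 3876, 3149 and 2845. T barcodes were chosen by their Cd3 UMIs, which therefore do not check the label. All 8 epithelial markers were also read in them, at a summed 269, 3180 and 4690 CPM, with 3 or more such UMIs in 8.72%, 41.0% and 17.4% of T barcodes. All 10 macrophage markers summed to 2100, 2410 and 2530 CPM and all 10 monocyte markers to 613, 695 and 1070 CPM. Lyz2, an abundant RNA of myeloid and alveolar epithelial cells that is on neither list, differed far more, at 1736, 3935 and 8849 CPM with a UMI in 51.7%, 84.0% and 93.1% of T barcodes. Its part in the results below was not tested. Pparg itself was at 17.3, 20.6 and 51.9 CPM in T barcodes; UMIs of a 3′ library do not show whether an exon was removed, so they check nothing about the deletion.

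Across T barcodes, the regulatory T cell pair Foxp3 and Ikzf2 stood highest in WT tumour. In all T barcodes together both were close to the healthy level in PPARg-/- tumour. In Cd4-only barcodes, and without barcodes that held other cells' markers, Ikzf2 stayed above that level. Lef1 was lower in WT tumour than in WT healthy, and Gata3 was lower in PPARg-/- tumour than in WT tumour. Tbx21, Eomes, Tox and Tcf7 stayed within 1.5-fold in both comparisons. Genes with at least 20 UMIs over both libraries were called when they differed by 1.5-fold or more and their interval left out a ratio of 1. By that rule of size, which is no test, 2 members were higher and 1 lower in WT tumour over WT healthy, where 14.9% of all genes were called (9.96% higher and 4.91% lower). In PPARg-/- tumour over WT tumour 1 was higher and 3 lower, where 9.49% were called (4.66% higher and 4.82% lower).

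**Figure D1:**
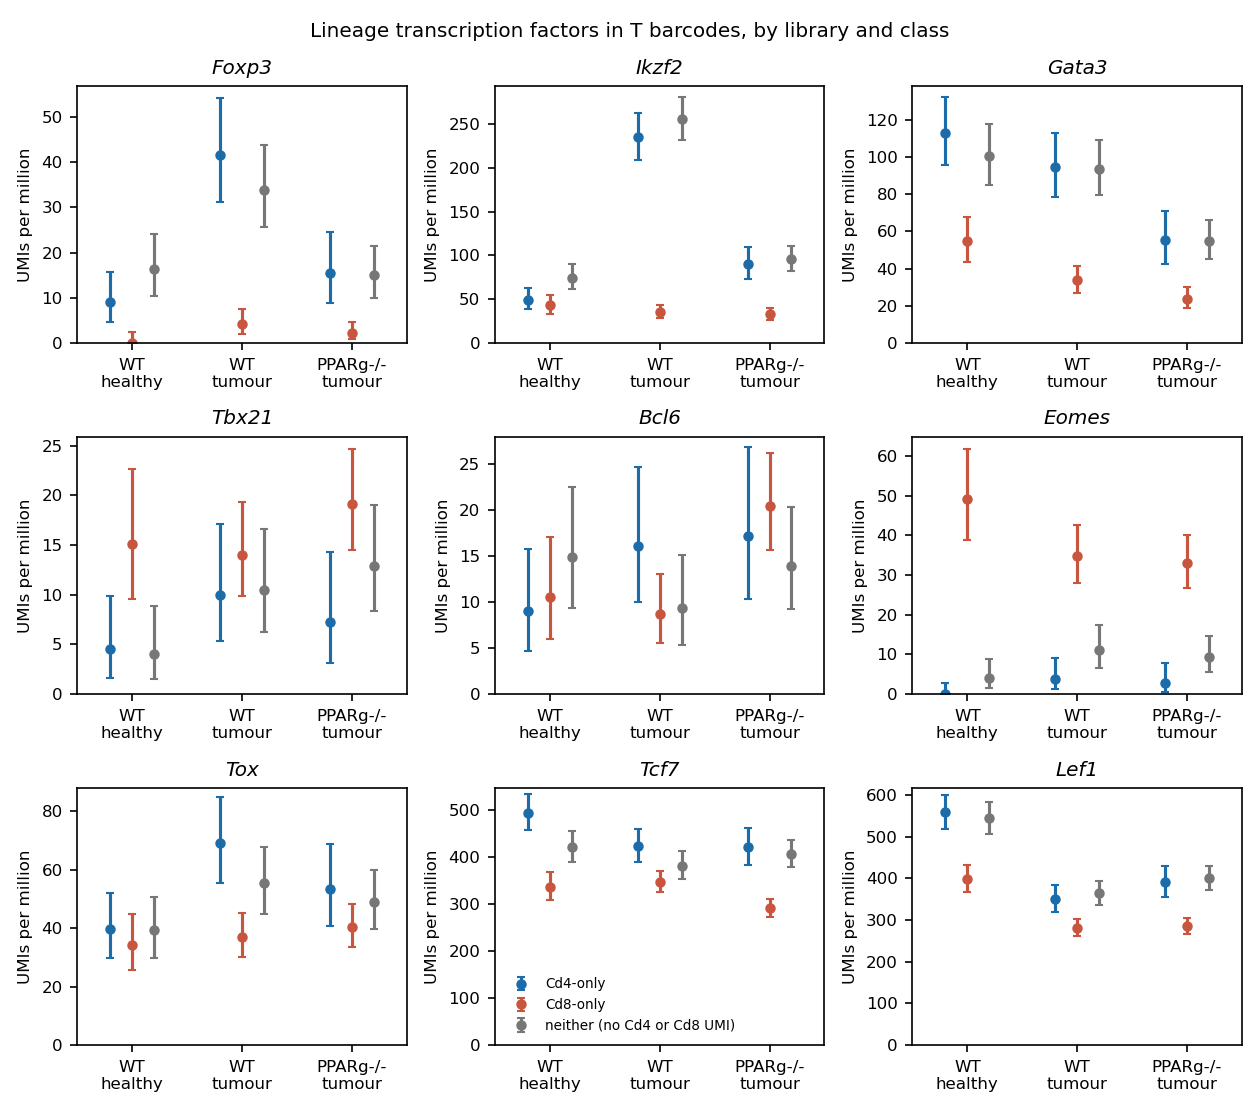
UMIs per 1000000 (y axis, from 0) of each member in Cd4-only, Cd8-only and Cd4/Cd8-negative T barcodes of the 3 libraries (x axis). Points are the summed level of 1 library and bars its exact 95% counting interval. Foxp3 and Ikzf2 stand highest in WT tumour in the blue and grey points, and Eomes is near 0 outside the red Cd8-only points.

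Foxp3 (chrX:7573644-7595245, plus strand, GRCm38), the master regulator of regulatory T cells, had 36, 128 and 55 UMIs in the T barcodes of WT healthy, WT tumour and PPARg-/- tumour. These are levels of 8.08 CPM (interval 5.66 to 11.2), 22.3 CPM (18.6 to 26.6) and 8.94 CPM (6.74 to 11.6). WT tumour stood apart from both other libraries, whose intervals overlapped each other. The log2 ratio was 1.47 (0.92 to 2.04) for WT tumour over WT healthy and -1.32 (-1.80 to -0.85) for PPARg-/- tumour over WT tumour. At least 1 Foxp3 UMI was found in 2.00% of T barcodes (19), 4.68% (65) and 1.81% (30). In macrophage-like barcodes, a cell type that should lack the gene, the share was 0%, 0.157% and 0.0826% at median depths of 12858, 14173 and 16089 UMIs.

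Ikzf2 (chr1:69531214-69687245, minus strand), which encodes Helios, followed the same order. Its T barcode levels were 56.1 CPM (49.3 to 63.5), 156.0 CPM (145.9 to 166.5) and 64.7 CPM (58.5 to 71.4), from 250, 894 and 398 UMIs. The log2 ratios were 1.48 (1.27 to 1.68) and -1.27 (-1.44 to -1.10), about the sizes seen for Foxp3. The share of T barcodes with an Ikzf2 UMI went from 9.03% to 15.4% and then 10.2%, and barcodes with 5 or more Ikzf2 UMIs numbered 15, 65 and 16. Some UMIs may belong to genes on the same strand within these loci, Flicr at Foxp3 and Gm29112 and Gm28112 at Ikzf2.

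The difference in the pair lay in Cd4-only barcodes and in those with neither co-receptor. In Cd4-only barcodes Foxp3 was at 9.02, 41.5 and 15.4 CPM, with log2 ratios of 2.20 (1.28 to 3.24) and -1.43 (-2.31 to -0.62). Ikzf2 was at 49.6, 235.0 and 90.5 CPM there, with log2 ratios of 2.24 (1.86 to 2.65) and -1.38 (-1.72 to -1.05). The Ikzf2 interval of PPARg-/- tumour (73.6 to 110.0) lay above that of WT healthy (38.4 to 63.1). In Cd8-only barcodes Ikzf2 stayed within 1.5-fold at 43.4, 35.9 and 32.6 CPM, and Foxp3 had 0, 11 and 7 UMIs, too few for the rule. Barcodes with neither co-receptor held Foxp3 at 16.3, 33.8 and 14.99 CPM and Ikzf2 at 74.5, 255.5 and 95.6 CPM. Both were higher in WT tumour than in WT healthy there (13.4% of all genes called, 8.26% higher and 5.09% lower), and both were lower in PPARg-/- tumour than in WT tumour (9.6% called, 2.75% higher and 6.85% lower). Fewer cells of a type and less RNA per cell cannot be told apart in these sums.

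The order was as marked in T barcodes without other cells' markers. After T barcodes with 3 or more UMIs of macrophage, B cell, epithelial, endothelial or neutrophil markers were left out, 630, 427 and 923 remained, and Foxp3 stood at 6.89, 23.3 and 9.04 CPM. Ikzf2 stood at 50.7, 183 and 82.9 CPM in the same barcodes. WT tumour was again the highest of the 3 for both genes. The Ikzf2 interval of PPARg-/- tumour (72.1 to 94.9) then lay above that of WT healthy (42.2 to 60.4). In Cd4-only barcodes 1, 9 and 5 Foxp3 UMIs then remained, and the Foxp3 UMIs of Cd8-only barcodes were then 0 in each library.

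**Figure D2:**
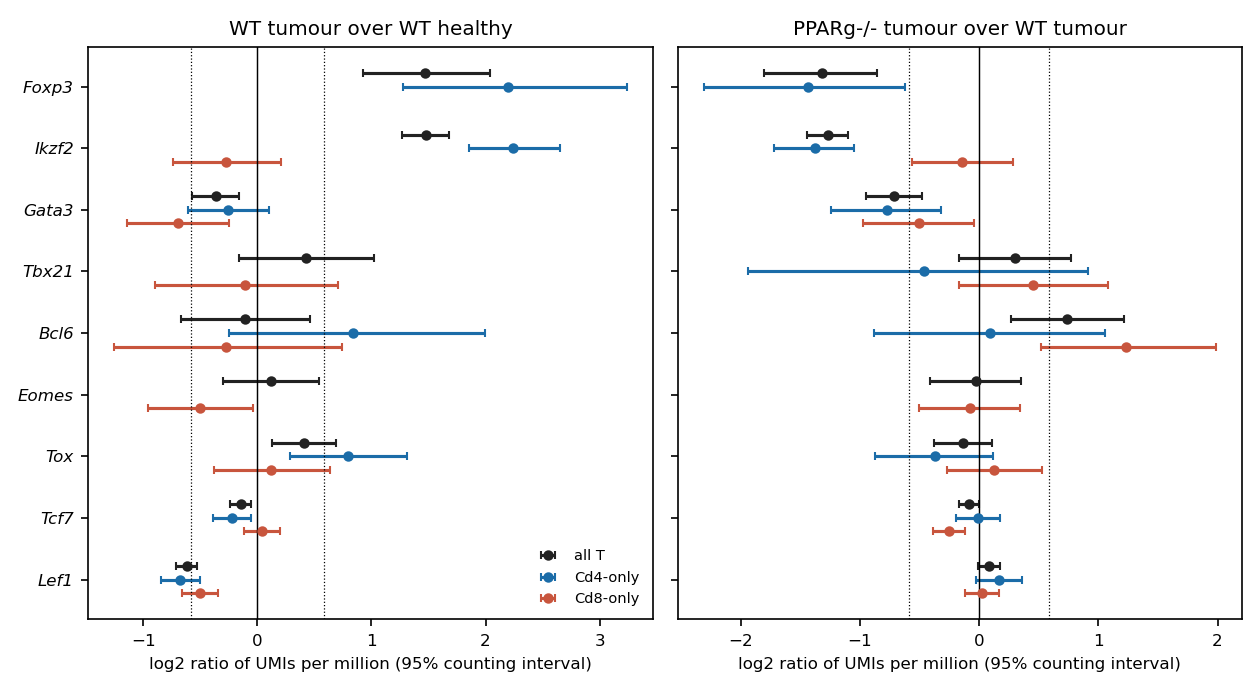
log2 ratio of UMIs per 1000000 (x axis) of each member (y axis) for WT tumour over WT healthy (left) and PPARg-/- tumour over WT tumour (right), in all T, Cd4-only and Cd8-only barcodes. Points are ratios of 2 libraries, bars are 95% counting intervals, dotted lines mark 1.5-fold, and pairs with under 20 UMIs have no point. Foxp3 and Ikzf2 lie to the right on the left side and to the left on the right side, in all T and Cd4-only barcodes.

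T barcodes with a Foxp3 UMI carried the other factors of a regulatory T cell within each library, a comparison of barcodes of 1 sample that has no test. Ikzf2 was at 495, 1363 and 874 CPM in the 19, 65 and 30 Foxp3-positive barcodes against 41.3, 82.9 and 48.0 CPM in the Foxp3-negative ones. The log2 ratios of 3.58, 4.04 and 4.19 were the highest of any member. An Ikzf2 UMI was seen in 14 of 19, 57 of 65 and 21 of 30 Foxp3-positive barcodes, while 16.3%, 26.6% and 12.4% of Ikzf2-positive barcodes had a Foxp3 UMI. With every barcode thinned to 1000 UMIs the counts were 3 of 6, 18 of 29 and 8 of 18.

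Gata3 was also higher in Foxp3-positive barcodes, at 329.8, 214 and 152 CPM against 78.2, 58.1 and 38.5 CPM. Tox was at 82.5, 137.5 and 72.2 CPM against 36.4, 45.0 and 45.3 CPM, past the rule in the first 2 libraries and not in PPARg-/- tumour (log2 0.67, -0.47 to 1.62). Tcf7 and Lef1, the factors of naive cells, were lower in all 3 libraries: Tcf7 at 165, 88.6 and 168 CPM against 423, 392 and 357 CPM. Lef1 was at 206, 107 and 168 CPM against 505, 336 and 345 CPM. Without barcodes that held other cells' markers the Tcf7 difference in WT healthy was no longer called (log2 -0.694, -1.7 to 0.151). In Cd4-only barcodes of PPARg-/- tumour, 8 of them Foxp3-positive, Lef1 was not called either (log2 -0.55, -1.69 to 0.39). Tbx21 had 3, 0 and 0 UMIs in these barcodes and Eomes 0, 0 and 1. In these splits 13.7%, 17% and 7.14% of all genes were called, of which 2.36%, 3.35% and 1.22% of all genes were lower.

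Of the regulatory T cell list (20 genes known from that lineage, Foxp3 and Ikzf2 not among them), 10 of 14, 15 of 15 and 10 of 14 genes measured were higher in Foxp3-positive barcodes and 0 lower, while 11.4%, 13.7% and 5.92% of all genes were higher. Il2ra, the high-affinity interleukin-2 receptor chain, was at 158, 235 and 168 CPM against 9.04, 21.7 and 9.13 CPM. Ctla4, an inhibitory receptor, was at 474, 471 and 385 CPM against 29.9, 32.0 and 24.6 CPM. Cd8a was at 0 and 3.06 CPM in the Foxp3-positive barcodes of WT healthy and WT tumour but at 80.2 CPM in those of PPARg-/- tumour, so that group of 30 barcodes includes some with CD8 RNA.

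The difference in Ikzf2 between libraries was present on both sides of this split. Among Foxp3-positive barcodes Ikzf2 was 2.75-fold higher in WT tumour than in WT healthy (log2 1.46, 1.10 to 1.84) and lower in PPARg-/- tumour than in WT tumour (log2 -0.64, -0.96 to -0.34). Among Foxp3-negative barcodes it was 2.01-fold higher (log2 1.01, 0.75 to 1.26) and then lower (log2 -0.79, -1.01 to -0.57). A barcode without a Foxp3 UMI may still express the gene, since low RNAs are captured in part. Only 10 of 19, 19 of 65 and 14 of 30 Foxp3-positive barcodes remained without those that held other cells' markers. These ratios were not recomputed on them. The 5 Foxp3-positive Cd4-only barcodes of WT healthy were also deep, at a median of 10772 UMIs against 3797.5 in Foxp3-negative ones. In WT tumour the medians were 2842 and 3070. The part of other cells' RNA and of depth was not tested.

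**Figure D3:**
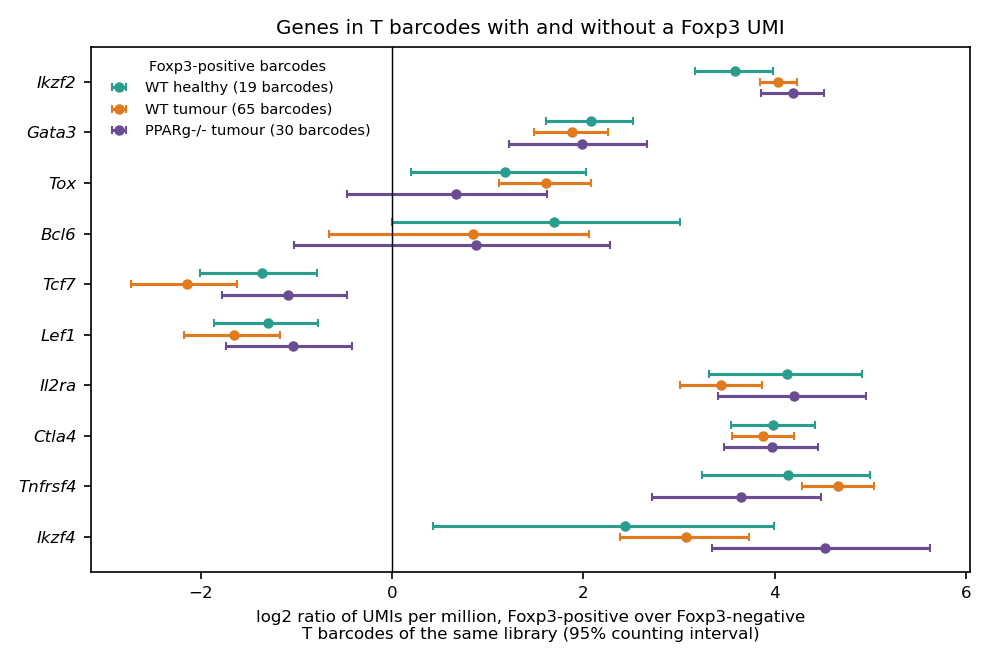
log2 ratio of UMIs per 1000000 (x axis) in Foxp3-positive over Foxp3-negative T barcodes of the same library, for 6 members and 4 regulatory T cell genes (y axis). Points are 1 library each, with 95% counting intervals, and numbers of Foxp3-positive barcodes are in the key. Ikzf2 and Gata3 lie above 0 and Tcf7 and Lef1 below 0 in each library.

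Gata3 (chr2:9857078-9890034, minus strand), which directs type 2 helper cells and is also used by regulatory T cells, stood in the order WT healthy, WT tumour, PPARg-/- tumour. Its T barcode levels were 86.4 CPM (78.0 to 95.4), 67.0 CPM (60.5 to 74.0) and 40.8 CPM (35.9 to 46.2), with no overlap between the 3 intervals. The first step was under 1.5-fold (log2 -0.37, -0.57 to -0.16) and the second was past it (log2 -0.72, -0.95 to -0.48). Without barcodes that held other cells' markers Gata3 was at 87.6 CPM (76.3 to 100.1), 83.6 CPM (68.7 to 100.6) and 55.4 CPM (46.6 to 65.3), so the first 2 libraries overlapped and PPARg-/- tumour stayed below both. In Cd4-only barcodes so filtered it was at 94.2, 116.6 and 67.4 CPM. The second step was alike in Cd4-only barcodes (94.5 to 55.2 CPM, log2 -0.78) and in those with neither co-receptor (93.3 to 54.8 CPM, log2 -0.77). In Cd8-only barcodes Gata3 was at 54.5, 33.7 and 23.7 CPM, and there the first step passed the rule (log2 -0.70, -1.14 to -0.25) and the second did not (log2 -0.50, -0.97 to -0.04). The Cd8-only call of the first step held under 9 of 13 alternatives and was lost without other cells' markers (57.3 to 49.3 CPM, log2 -0.22, -0.93 to 0.48).

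Foxp3-negative barcodes also showed the lower Gata3 of PPARg-/- tumour (log2 -0.59, 1.51-fold lower). Within Cd4-only barcodes, Gata3-positive ones held more Foxp3, at 26.9, 62.0 and 65.3 CPM against 1.09, 33.3 and 4.41 CPM. All Cd4-only barcodes together had 12, 54 and 17 Foxp3 UMIs, in 5, 27 and 8 barcodes. The counts of WT healthy and PPARg-/- tumour are under 20, too few for the rule. Ikzf2 was at 105, 445 and 246 CPM in Gata3-positive Cd4-only barcodes against 25.0, 151 and 56.3 CPM in Gata3-negative ones. Markers of innate type 2 lymphoid cells, which also use GATA3 and of which Gata3 is 1 of 8, summed to 162, 178 and 98.0 CPM in T barcodes with Il5 at 0 in each library, and their part in the result was not tested. Outside T cells, Gata3 was read in NK-like barcodes at 69.1, 63.6 and 88.0 CPM, on 15, 2 and 5 UMIs. In endothelial-like barcodes it was at 63.0, 47.4 and 75.5 CPM. In neither class was the PPARg-/- tumour value the lowest.

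Tbx21 and Eomes, the T-box factors of type 1 and cytotoxic lymphocytes, were read mainly in Cd8-only barcodes. Eomes (chr9:118478212-118486132, plus strand) was at 49.3 CPM (75 UMIs), 34.8 CPM (92 UMIs) and 33.0 CPM (100 UMIs) in Cd8-only barcodes of WT healthy, WT tumour and PPARg-/- tumour, against 0, 5 and 3 UMIs in Cd4-only ones. The log2 ratio of Cd4-only over Cd8-only was -4.12 or lower by its interval in WT healthy, where Cd4-only had 0 UMIs, and Eomes was 9.06-fold and 12.1-fold higher in Cd8-only barcodes of the tumour libraries. Tbx21 (chr11:97098071-97115331, minus strand) was at 15.1, 14.0 and 19.1 CPM in Cd8-only and 4.51, 9.99 and 7.24 CPM in Cd4-only barcodes. That gap was 3.35-fold and 2.64-fold in WT healthy and PPARg-/- tumour, and in WT tumour the 1.4-fold gap did not exceed the counting error.

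Neither gene passed the rule between libraries in all T or in Cd8-only barcodes. For Tbx21 the log2 ratios in T barcodes were 0.42 (-0.16 to 1.02) and 0.30 (-0.17 to 0.77), intervals that include both no difference and more than 1.5-fold. For Eomes they were 0.12 (-0.30 to 0.54) and -0.03 (-0.41 to 0.35), intervals that end short of 1.5-fold. With every barcode thinned to 1000 UMIs, Eomes did pass the rule in WT tumour over WT healthy (log2 1.38, 0.35 to 2.55), with a UMI in 6 of 952 against 33 of 1389 T barcodes. Thinning was a single random draw that was not repeated, so this call rests on those few barcodes. In barcodes with neither co-receptor Eomes passed the rule in WT tumour over WT healthy on 19 against 6 UMIs (log2 1.45, 0.07 to 3.06).

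Among Cd8-only barcodes, those with a Tbx21 UMI held more Ccl5 and less Tcf7 and Lef1 in each library, and those with an Eomes UMI held more Gzmk. Ccl5 and Gzmk were named after their values were seen and stand for no group of genes. The 21, 32 and 46 Tbx21-positive barcodes held Ccl5, a chemokine of effector cells, at 11800, 4585 and 11280 CPM against 1430, 2136 and 2416 CPM in the Tbx21-negative ones. They held Tcf7 at 106, 176 and 161 CPM against 360, 361 and 302 CPM, and Lef1 at 76.0, 98.3 and 98.6 CPM against 429, 296 and 301 CPM. The 41, 67 and 74 Eomes-positive barcodes held Gzmk, a granzyme of memory CD8 T cells, at 47.8, 92.8 and 99.3 CPM against 6.29, 16.2 and 28.3 CPM.

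In Eomes-positive barcodes Lef1 was lower in all 3 libraries and Tcf7 in 1. Tcf7 in Eomes-positive Cd8-only barcodes was at 319, 284 and 167 CPM against 341, 357 and 309 CPM, within 1.5-fold in WT healthy and WT tumour and lower in PPARg-/- tumour (log2 -0.89, -1.28 to -0.52). Lef1 was lower in each library, at 219, 132 and 167 CPM against 434, 304 and 303 CPM. A Tbx21 and an Eomes UMI were found together in 8, 3 and 12 T barcodes.

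Tox (chr4:6686353-6991557, minus strand), the HMG-box factor linked to chronic stimulation, was at 37.9 CPM (32.4 to 44.1), 50.2 CPM (44.6 to 56.4) and 45.8 CPM (40.7 to 51.5) in T barcodes. The log2 ratios of 0.41 and -0.13 were under the rule. In Cd4-only barcodes it was at 39.9, 69.1 and 53.4 CPM and passed the rule in WT tumour over WT healthy (log2 0.79, 0.29 to 1.31), while in Cd8-only barcodes it was at 34.2, 37.1 and 40.5 CPM. In that Cd4-only comparison Foxp3, Ikzf2 and Tox were higher and Lef1 lower among 7 members with enough UMIs, and 14.4% of all genes were called (9.85% higher and 4.53% lower). For PPARg-/- tumour over WT tumour in Cd4-only barcodes, Foxp3, Ikzf2 and Gata3 were lower among 8 members, where 9.63% were called (2.73% higher and 6.89% lower). Of 16 genes of dissociation stress, 7 were lower and 0 higher in that same comparison (median log2 -0.65 beside -0.12 for all genes), and their part in the result was not tested.

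Tox-positive T barcodes (142, 227 and 229) held more Pdcd1, Lag3 and Ikzf2 and less Ccl5, genes named after their values were seen. Pdcd1, which encodes PD-1, was at 14.6, 42.3 and 16.4 CPM against 0.270, 10.98 and 2.54 CPM in Tox-negative ones. Lag3 was at 15.9, 12.9 and 18.3 CPM against 1.08, 5.17 and 3.91 CPM, and Ikzf2 at 167, 345 and 120 CPM against 33.5, 112 and 53.4 CPM. Pdcd1 and Lag3 each had under 20 UMIs in all T barcodes of WT healthy, too few for the rule. Ccl5 was lower, at 461, 800.4 and 916 CPM against 1086, 1560 and 2179 CPM. A Tcf7 UMI was about as frequent with Tox as without it, in 78.2%, 67.8% and 66.4% of Tox-positive against 75.9%, 68.2% and 63.1% of Tox-negative T barcodes.

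Tox was also read in macrophage-like barcodes of 1 library. It had 0, 3 and 205 UMIs in the 1006, 1276 and 1211 macrophage-like barcodes (0 UMIs of Cd3d, Cd3e and Cd3g by definition) of WT healthy, WT tumour and PPARg-/- tumour. An UMI was found in 0%, 0.235% and 13.5% (11.7 to 15.6) of them, and the level in PPARg-/- tumour, 10.4 CPM, was 61.8-fold that of WT tumour, with a counting interval of 20.8 to 302. Of the 164 Tox-positive macrophage-like barcodes, 159 had no UMI of a Cd3 gene, Trac or Trbc2, and 30 had 2 or more Tox UMIs. In the free RNA of barcodes with 10 to 100 UMIs Tox was at 6.92, 5.82 and 9.48 CPM, close together in the 3 libraries, and Tcf7 and Lef1 did not exceed 0.783 CPM in macrophage-like barcodes of any library. Gm11802 lies on the opposite strand of this locus, and the files do not state whether strand was used in counting.

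**Figure D4:**
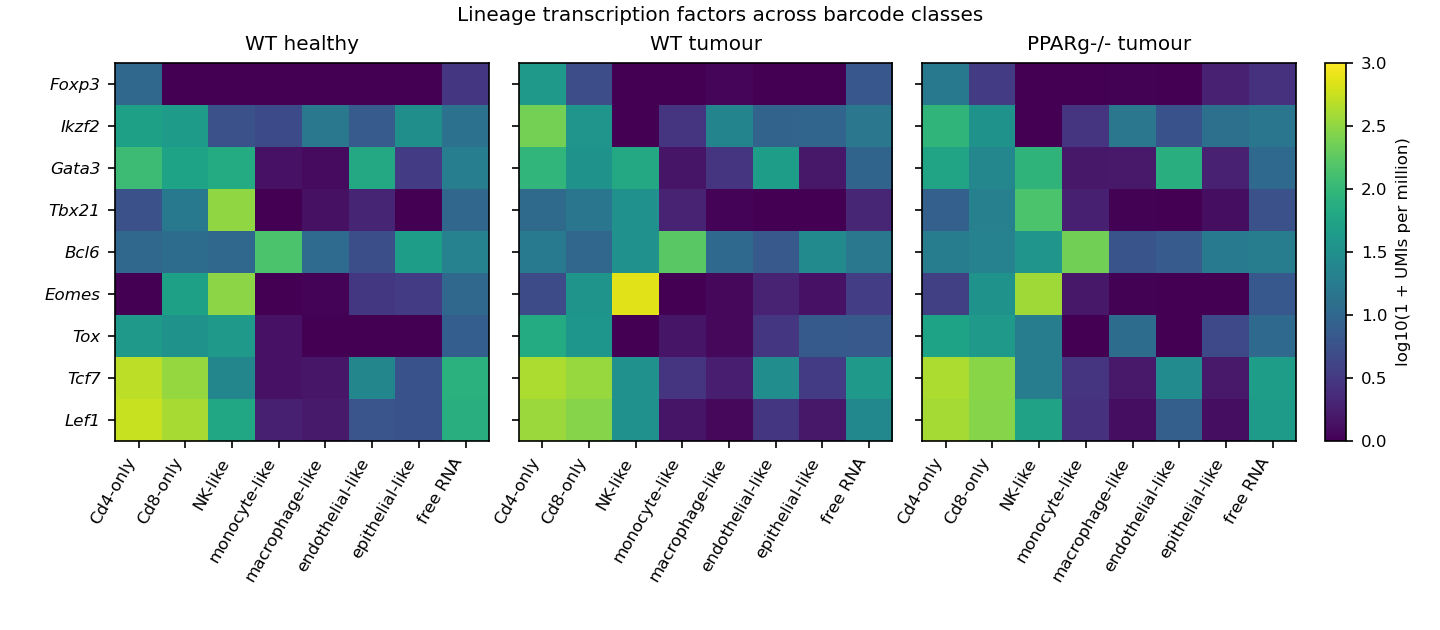
log10 of 1 plus UMIs per 1000000 (colour) of each member (rows) in 8 barcode classes (columns) of the 3 libraries. Outside T barcodes, Eomes is bright in NK-like barcodes of each library and Tbx21 in those of WT healthy and PPARg-/- tumour, Bcl6 in monocyte-like and Gata3 in NK-like and endothelial-like ones, and Tox in macrophage-like barcodes is near 0 except in PPARg-/- tumour.

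Bcl6 (chr16:23965052-23988852, minus strand), the repressor that directs follicular helper T cells, was the 1 member called higher in PPARg-/- tumour. Its T barcode levels were 11.4 CPM (8.52 to 15.04), 10.6 CPM (8.14 to 13.7) and 17.7 CPM (14.6 to 21.4), a log2 ratio of 0.74 (0.27 to 1.21) over WT tumour. The difference lay in Cd8-only barcodes, at 10.5, 8.70 and 20.4 CPM (log2 1.23, 0.52 to 1.99), where it was the sole member of 8 called and 9.65% of all genes were (6.3% higher and 3.35% lower). In Cd4-only barcodes, where follicular helper cells would be, Bcl6 was at 9.02, 16.1 and 17.2 CPM, with a log2 ratio of 0.09 (-0.88 to 1.06) over WT tumour.

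Bcl6 was higher in monocyte-like than in T barcodes of each library. Monocyte-like barcodes held it at 142, 171 and 226 CPM, with a UMI in 45.0%, 43.0% and 47.4% of 393, 465 and 943 barcodes. T barcodes with a UMI of Csf1r, Adgre4, Treml4 or Ace, 4 genes of monocytes picked after this was seen, numbered 76, 110 and 194, and held Bcl6 at 16.8, 22.5 and 46.7 CPM. The other T barcodes held it at 10.2, 7.05 and 6.14 CPM, lowest in PPARg-/- tumour. Of the Bcl6-positive Cd8-only barcodes, 5 of 13, 10 of 17 and 31 of 36 had such a UMI. Without those barcodes the log2 ratio of PPARg-/- tumour over WT tumour was -0.20 (-0.998 to 0.594) in T and -0.19 (-2.04 to 1.61) in Cd8-only barcodes, so the call was lost and its sign turned.

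**Figure D5:**
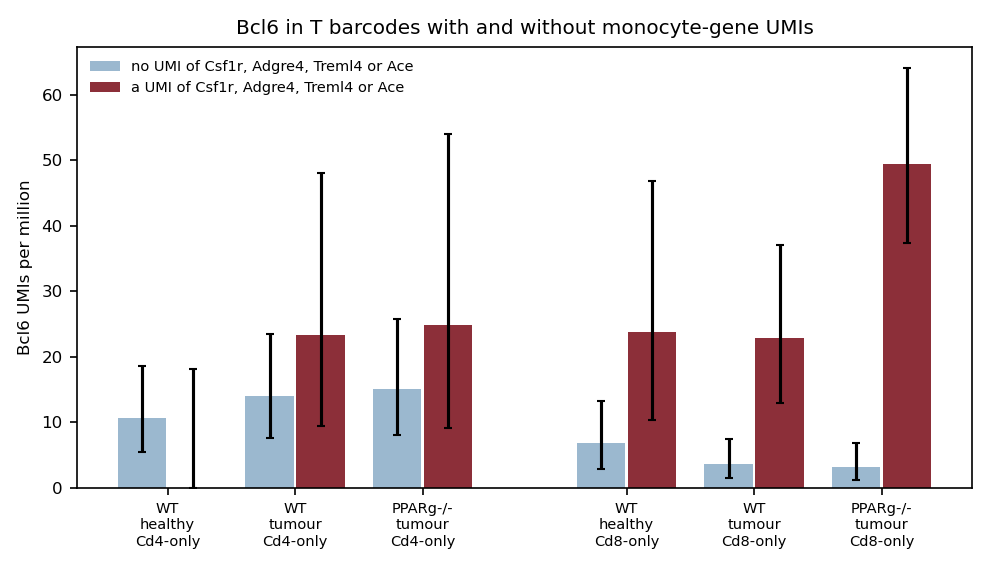
Bcl6 UMIs per 1000000 (y axis, from 0) in Cd4-only and Cd8-only T barcodes of the 3 libraries, with (dark) and without (light) a UMI of Csf1r, Adgre4, Treml4 or Ace. Bars are the summed level of 1 library and whiskers its 95% counting interval. The dark Cd8-only bar of PPARg-/- tumour, at 49.4, is the highest, and the light bar beside it, at 3.16, is among the lowest.

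Tcf7 (chr11:52252371-52283014, minus strand) and Lef1 (chr3:131110471-131224356, plus strand), the HMG-box factors of naive and memory T cells, were the most widely detected members. Lef1 was at 496 CPM (475 to 517) in the T barcodes of WT healthy, 323 CPM (308.0 to 338) in WT tumour and 341 CPM (327 to 356) in PPARg-/- tumour. The healthy library stood apart and the tumour libraries overlapped, with log2 ratios of -0.62 (-0.71 to -0.53) and 0.08 (-0.01 to 0.17). Tcf7 was at 415 CPM (396 to 434), 375 CPM (359 to 391) and 353 CPM (339 to 369), with log2 ratios of -0.15 and -0.08, both under the rule. The shares of T barcodes with a Lef1 UMI were 79.6%, 58.9% and 61.3%, and 41.3%, 27.5% and 31.7% after thinning. For Tcf7 they were 76.3%, 68.2% and 63.5%, and 37.2%, 35.1% and 32.3% after thinning.

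The lower Lef1 of WT tumour was of like size in each class. It was at 558, 349.5 and 392 CPM in Cd4-only barcodes (log2 -0.67, -0.85 to -0.50), at 399, 281 and 286 CPM in Cd8-only (log2 -0.50, -0.66 to -0.35, under 1.5-fold), and at 543, 364.0 and 400.6 CPM in those with neither. Foxp3-negative barcodes gave a log2 ratio of -0.59. Without T barcodes that held other cells' markers, Lef1 was at 582, 380 and 445.5 CPM, and the log2 ratio was -0.61. In Cd8-only barcodes the 1 call in WT tumour over WT healthy was Gata3, where 12.8% of all genes were called (7.1% higher and 5.74% lower).

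Tcf7-positive Cd8-only barcodes (212, 400 and 426) held more Ccr7 and fewer effector RNAs than Tcf7-negative ones. Ccr7, the receptor for lymph node entry, was at 340, 264 and 246 CPM against 166, 132 and 161 CPM in Tcf7-negative ones. Gzmk was at 0.861, 7.69 and 8.80 CPM against 52.7, 79.5 and 87.2 CPM, and Gzmb at 10.3, 14.4 and 7.76 CPM against 252, 78.0 and 76.3 CPM. Ifng, the type 1 cytokine, was at 25.0, 7.18 and 7.76 CPM against 158, 39.02 and 49.96 CPM. The naive and effector genes thus parted on Tcf7 in the same direction in all 3 libraries.

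A loose pattern for TCF-1 and LEF1, CTTTGNT with N as any base (TCF/LEF below), was sought in the members' promoters. The reason was that Lef1 was lower in Foxp3-positive, Tbx21-positive and Eomes-positive barcodes of each library. RefSeq windows of the 250 bases before a transcription start (GRCm38.p6) were matched for 7 of 9 members, 13 windows in all, with none matched for Ikzf2 and Tox. The letters CTTTGNT on either strand stood in 5 of the 13 windows, against 16.0% of all 32817 windows of that length. The GATA letters TGATAA stood in 2 (7.95% of all) and the forkhead letters TGTTTAC in 0 (3.16% of all). The 3 windows below, of Foxp3, Tbx21 and Eomes, each hold 1 match, shown in capitals as it reads on the gene's strand (AGCAAAG is the reverse complement of CTTTGCT). It lies at -19 to -13 from the Foxp3 start, -18 to -12 from the Tbx21 start and -79 to -73 from the Eomes start. All 3 matches shown have C at the open position N, so they fit the loose pattern only by that freedom. A match describes letters only and shows no binding, and the Foxp3 window is that of 1 of its 2 starts and overlaps an exon of Flicr. The window of the other Foxp3 start holds 3 TCF/LEF and 2 GATA matches. That of Bcl6 start 1 holds 2 TCF/LEF matches, and that of Bcl6 start 2 holds 0. Windows of 1 gene can overlap, as those of Lef1 starts 1 and 2 do, so the 13 windows are not independent.
Foxp3, chrX:7580233-7580482, plus strand: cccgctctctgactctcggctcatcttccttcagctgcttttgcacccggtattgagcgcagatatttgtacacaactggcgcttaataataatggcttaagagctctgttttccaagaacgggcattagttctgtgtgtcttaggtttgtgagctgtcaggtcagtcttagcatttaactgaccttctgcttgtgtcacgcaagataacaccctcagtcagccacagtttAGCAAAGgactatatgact
Tbx21, chr11:97115332-97115581, minus strand: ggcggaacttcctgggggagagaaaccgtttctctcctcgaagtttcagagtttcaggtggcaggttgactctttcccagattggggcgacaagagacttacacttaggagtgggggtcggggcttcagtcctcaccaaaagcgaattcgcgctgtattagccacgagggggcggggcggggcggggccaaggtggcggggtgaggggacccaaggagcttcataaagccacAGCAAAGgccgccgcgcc
Eomes, chr9:118477939-118478188, plus strand: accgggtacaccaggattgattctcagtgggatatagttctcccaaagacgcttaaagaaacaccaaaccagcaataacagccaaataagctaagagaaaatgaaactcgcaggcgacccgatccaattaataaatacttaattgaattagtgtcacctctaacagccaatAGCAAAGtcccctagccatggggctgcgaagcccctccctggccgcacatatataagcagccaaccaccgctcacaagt

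Between Cd4-only and Cd8-only barcodes of the same library, Foxp3, Gata3, Tcf7 and Lef1 were higher in Cd4-only barcodes beyond counting error in 3 of 3 libraries, and Eomes was higher in Cd8-only barcodes in 3 of 3. Ikzf2 exceeded counting error in both tumour libraries but not in WT healthy (log2 0.20, -0.32 to 0.71), and Tox in WT tumour alone. For Foxp3 the interval of the log2 ratio began at 1.67 in WT healthy, where Cd8-only had 0 UMIs, and Foxp3 was 9.97-fold and 6.66-fold higher in WT tumour and PPARg-/- tumour. The Ikzf2 gap was 1.14-fold, 6.54-fold and 2.77-fold, the Gata3 gap 2.07-fold, 2.81-fold and 2.32-fold. The Tcf7 gap was 1.47-fold, 1.22-fold and 1.45-fold and the Lef1 gap 1.4-fold, 1.24-fold and 1.37-fold, all under 1.5-fold. The share of all genes that differ between these classes was not computed, so these counts of members have no background beside them.

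The genes most like each member were found over 25 sums of library and class, T and other cells together, by Pearson's r of log2(CPM + 10). These values describe how classes differ and share the libraries and their depths, so they carry no p. Foxp3 went with Tnfrsf4 (r = 0.962), a costimulatory receptor of regulatory T cells, and with Podnl1 and Sdcbp2 (0.917 each). Tbx21 went with Sytl3 (0.975), Klrg1 (0.97) and Klrc2 (0.969), and Eomes with Klrc1 (0.982), Cd160 (0.981) and Gzmb (0.967), mostly receptors of natural killer and effector cells. Gata3 went with Rnf125 (0.955) and Itpkb (0.945). Bcl6 stood alone among the members: its genes were Arhgef10l (0.946), Gm9733 (0.929) and the monocyte receptor Adgre4 (0.922), and its highest r with another member was -0.191. Lef1 went with Trbc2 (0.994) and Ubash3a (0.991), and Tcf7 with Srpk1 (0.987), Camk4 and the T cell receptor gene Trac (0.974 each). Tox went with Gm2682 (0.95), Skap1 (0.94) and Trbc1 (0.937), and Ikzf2 with Podnl1 (0.909), Tesc (0.891) and Gm28112 (0.88), the last of which lies within the Ikzf2 locus.

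Genes that these factors control or accompany were read from lists of known function in T barcodes. Beside each count below, 9.96% of all genes were higher and 4.91% lower in WT tumour over WT healthy, and 4.66% higher and 4.82% lower in PPARg-/- tumour over WT tumour. Of the 17 measured genes of the regulatory T cell list, 9 were higher and 2 lower in WT tumour than in WT healthy (median log2 0.81 beside 0.05 for all genes), and 2 were higher and 8 lower in PPARg-/- tumour than in WT tumour (median -0.56 beside -0.05). Tnfrsf9, an activation receptor, was at 2.02, 14.7 and 1.46 CPM. Tnfrsf4 was at 11.4, 45.0 and 11.9 CPM. The 2 lower ones, Gpr83 and Izumo1r, went from 7.85 to 3.32 and from 50.3 to 30.01 CPM in WT tumour, so called genes of the list lay in both directions.

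Of 32 other T cell transcription factors, 2 were higher and 6 lower in WT tumour, and 1 higher and 2 lower in PPARg-/- tumour over WT tumour, a share close to the 9.49% of all genes called there. Ikzf4, which encodes Eos, a partner of FOXP3 and kin of Helios, was at 5.83, 15.5 and 5.53 CPM, highest in WT tumour as Foxp3 and Ikzf2 were. Maf was higher in WT tumour, from 67.1 to 112.5 CPM. Satb1, a chromatin organiser of naive T cells, was at 775, 369 and 369.5 CPM, highest in WT healthy as Lef1 was, and Irf4, induced by T cell receptor signals, went from 28.7 to 9.77 CPM. Rora went from 89.2 to 44.2 CPM in PPARg-/- tumour over WT tumour, and Id3 from 15.9 to 26.5 CPM.

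The type 2 list had 4 of 7 genes higher in WT tumour and then 1 higher and 4 lower of 8 in PPARg-/- tumour, beside the lower Gata3 there (9.96% of all genes were higher in the first comparison, and 4.66% higher and 4.82% lower in the second). Ccr8, a chemokine receptor of type 2 and tumour regulatory T cells, was at 1.12, 3.32 and 0.488 CPM, and Areg, a growth factor that binds EGFR, at 1.57, 4.89 and 9.10 CPM. Both genes stand on the regulatory T cell list as well, and so does Il1rl1, called higher in WT tumour and lower in PPARg-/- tumour. The counts of these lists therefore share genes. The type 17 list had 4 of 8 higher in WT tumour and 4 of 8 lower in PPARg-/- tumour. The cytokine gene Il17f had 2, 33 and 0 UMIs. The type 1 list, genes of the T-bet programme, had 3 higher and 1 lower of 14, then 1 lower of 14, beside 14.9% and 9.49% of all genes called, so the second count is under the background. Cxcr3, a T-bet target, went from 17.5 to 41.0 CPM in WT tumour, and Ifng from 24.2 to 15 CPM.

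In the counts that follow, 14.9% of all genes were called in WT tumour over WT healthy (9.96% higher, 4.91% lower) and 9.49% in PPARg-/- tumour over WT tumour (4.66% higher, 4.82% lower). The naive and central memory list had 3 of 12 lower in WT tumour (Satb1, Ccr9 and Bach2) and none called in PPARg-/- tumour over WT tumour, as for Lef1. The follicular helper list had 3 of 9 higher in WT tumour, with Pdcd1 at 2.69, 16.9 and 4.88 CPM, and 1 of 9 lower in PPARg-/- tumour. Bcl6 was called higher in PPARg-/- tumour in all T barcodes, a call lost without barcodes that held a monocyte-gene UMI. The checkpoint list had 5 higher and 3 lower of 13, then 3 lower. The cytotoxic list had 4 higher and 3 lower of 14, then 6 higher, among them Gzmk at 4.49, 16.2 and 25.5 CPM. Cx3cr1, at 22.7, 50.4 and 92.7 CPM, is also on the list of monocyte markers, so the sum of that list given above includes it. The part of monocyte RNA in its values was not tested. Of the residence list 4 were higher and 1 lower of 8, then 2 lower, and of 16 genes of dissociation stress 1 was higher and 6 lower, then 4 higher and 1 lower.

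Several members were also read outside T barcodes. Epithelial-like barcodes held Bcl6 at 46.7, 26.0 and 16.9 CPM, with a UMI in 25.0%, 25.8% and 16.8% of them. They held Tox at 0, 6.13 and 3.62 CPM, on 0, 32 and 12 UMIs. NK-like barcodes held Lef1 at 59.8, 31.8 and 52.8 CPM, on 13, 1 and 3 UMIs. NK-like barcodes (58, 11 and 26) held Eomes at 299, 732 and 370 CPM and Tbx21 at 313.0, 31.8 and 141 CPM, on 68, 1 and 8 UMIs, too few in the tumour libraries to compare. Endothelial-like barcodes held Tcf7 at 23.1, 28.7 and 27.3 CPM. Ikzf2 in macrophage-like barcodes was at 14.9, 21.6 and 14.6 CPM, against 12.4, 14.4 and 14.0 CPM in free RNA. The intervals overlapped in WT healthy and PPARg-/- tumour but not in WT tumour (19.5 to 23.8 against 10.8 to 18.9). Tcf7, Lef1, Foxp3 and Eomes were each at or below 1.93 CPM in macrophage-like and monocyte-like barcodes of all 3 libraries.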

How the data were processed

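Single-cell RNA-seq UMI counts were deposited by the authors as 1 unfiltered matrix per library; the file headers name Cell Ranger 4, whereas version 6.0.1 of it, Seurat 4.0.1 and mm10 are listed in the submitters' processing notes. The labels do not say whether strand was used. Library totals were 30454790, 46148658 and 44548318 UMIs. Counts of barcodes past the limits were summed per library and class with Python 3.11.15, scipy 1.17.1 and pandas 2.3.3, with no doublet removal. Called means 1.5-fold or more with a 95% interval (Clopper-Pearson) excluding 1 and at least 20 UMIs. PCR and pooling of 3 mice are not in the intervals. The rule was run on simulated Poisson counts of the T barcode comparisons, the same model that the intervals assume. Of 200 genes changed 2-fold, 85.5% were recovered over 11465 genes for WT tumour over WT healthy. For PPARg-/- tumour over WT tumour 92.5% were recovered over 11902 genes. Of unchanged genes 1.65% and 1.48% were called. Clumping of UMIs within barcodes and differences between mice or libraries were not simulated, so these shares are not the error rate of the real calls. Macrophage-like and other classes had 0 Cd3 UMIs, at least 5 marker UMIs and over 2 times those of any other list.

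The members, gene lists and comparisons were chosen with earlier results of these data known. Text named the 9 members, the 3 genes most like each (classes of at least 30 barcodes, genes of at least 100 UMIs), and from each list up to 4 called genes, the 2 highest and 2 lowest ratios, plus Cd4, Cd8 and Cd3 genes, Xist and Ddx3y. Bach2, Pparg, the monocyte genes and the genes set beside Foxp3, Tbx21, Eomes, Tox, Gata3 or Tcf7 within a library were named after their values were seen. Some genes that the rule or a list names are not reported here.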

Additional observations from a re-analysis of the deposited data

How the results depend on the processing

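No leave-one-out fit and no test was possible with 1 library per group, and depth limits Foxp3, Tbx21, Bcl6 and Eomes most. No paired analysis was possible because each group has 1 library. In T barcodes Foxp3 and Ikzf2 passed the rule in both comparisons under 13 of 13 alternatives (Foxp3 log2 1.27 to 2.04 and -1.65 to -0.969, Ikzf2 1.35 to 1.85 and -1.37 to -1.14), Gata3 in PPARg-/- tumour over WT tumour under 13 of 13, Lef1 in WT tumour over WT healthy under 12 of 13 and Bcl6 in PPARg-/- tumour under 8 of 13. The causes of the changes below were not tested.

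Thinning each barcode to 1000 UMIs raised the members called in T barcodes for WT tumour over WT healthy from 3 to 5, adding Eomes and Tox, and lowered all genes called from 1705 to 791, and from 1129 to 478 for PPARg-/- tumour over WT tumour. Thinning was a single random draw that was not repeated. It left 2 of 4 and 1 of 3 members called in Cd4-only barcodes in the 2 comparisons. Removing barcodes with other cells' markers left 905 and 482 genes called in T barcodes, and 2 members in Cd4-only barcodes for WT tumour over WT healthy.

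In Cd8-only barcodes the 1 member called in each comparison became 0 with the mean per 10000 UMIs, with thinning and without other cells' markers, 0 in WT tumour over WT healthy without barcodes holding a Csf1r, Adgre4, Treml4 or Ace UMI (a setting added after the data were seen), and 0 in PPARg-/- tumour over WT tumour without Scrublet doublets. It became 2 in both comparisons with classes at 2 UMIs, and 2 in PPARg-/- tumour over WT tumour at a mitochondrial limit of 5%. Without the monocyte-gene barcodes Bcl6 in PPARg-/- tumour over WT tumour reversed to log2 -0.198 in T and -0.191 in Cd8-only barcodes.

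With thinning, the log2 ratio of shares of T barcodes for WT tumour over WT healthy went from 0.18 to 1.91 for Eomes, from 0.132 to 0.574 for Tox and from -0.435 to -0.586 for Lef1, and for PPARg-/- tumour over WT tumour from 0.0581 to 0.205 for Lef1. Ikzf2 in Foxp3-positive over Foxp3-negative T barcodes of WT tumour went from 4.04 to 3.12 with thinning, 4.29 at the 5% limit, 4.3 at 2000 UMIs and 4.25 without monocyte-gene barcodes, and in PPARg-/- tumour from 4.19 to 4.57 without doublets and 4.61 without other cells' markers. Tcf7 in the same split went to -2.94 in PPARg-/- tumour with thinning, and without other cells' markers to -0.694 in WT healthy, where the call was lost, and -2.77 in WT tumour.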
